A study of Mus musculus with 13 samples.

Results

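The 10 genes described here encode amino acid transporters of the plasma membrane: Slc7a1, Slc7a3, Slc3a2, Slc7a5, Slc7a11, Slc1a4, Slc1a5, Slc38a1, Slc38a2 and Slc6a9. They were taken by symbol from the 22406 symbols of the deposited tables. All 10 had a mean of at least 2 TPM (a length-scaled footprint level) over the MEF libraries and count among the 10432 genes called expressed there. In NIH3T3 cells 9 of the 10 passed the same limit, among 10117 expressed genes, and Slc7a3 did not.

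Cells take up most amino acids through carriers that either exchange one amino acid for another or couple uptake to the sodium gradient. Some of the exchangers are pairs of a glycoprotein heavy chain, Slc3a2, and a light chain that carries the substrate. Thapsigargin (Tg) blocks the calcium pump of the endoplasmic reticulum (ER) and so causes ER stress, and the ER stress kinase PERK, encoded by Eif2ak3, phosphorylates eIF2α, which lowers overall translation but raises that of the transcription factor ATF4, known for activating genes of amino acid uptake and synthesis.

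Ribosome footprints, the mRNA fragments that translating ribosomes protect from nuclease, had been sequenced from 13 libraries of mouse fibroblasts to follow the early and late response to ER stress with and without PERK. They were 5 libraries of PERK WT mouse embryonic fibroblasts (MEFs), a control and cells after 1, 2, 5 and 8 h of 1 μM Tg, and 5 of PERK −/− MEFs under the same treatments. The other 3 were of NIH3T3 cells, an immortalised mouse fibroblast line, as a control and after 2 and 7 h of 0.2 μM Tg. Cells had been trypsinised and frozen without cycloheximide. Each condition was 1 library, so no test between conditions was made, no spread between replicates is known, and genotype cannot be told apart from culture. Total expected counts ran from 2525029 in PERK WT MEFs at 2 h to 14799515 in PERK −/− MEFs at 2 h. TPM values are counts per length of coding sequence, scaled so that each library has the same sum, and thus shares of a library. A footprint level does not separate the amount of an mRNA from its translation. The libraries came from whole cultures, so fewer cells with a transcript and less of it per cell cannot be told apart.

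Eif2ak3, the gene targeted in the PERK −/− MEFs, still gave footprints in them. As counts scaled to the library total (CPM), it had 21.3 in the PERK WT control and 14.4, 19.0, 33.3 and 32.7 after 1, 2, 5 and 8 h of Tg. The PERK −/− values were 10.99 for the control and 8.99, 7.64, 13.2 and 19.1 after the same times, each lower than its PERK WT counterpart. NIH3T3 cells had 34.6, 25.7 and 49.7 CPM as control and after 2 and 7 h. Its TPM, which RSEM scales by the length of the transcripts it assigns, was 6.03 in the PERK WT control and 11.2 in the PERK −/− control. On that scale the PERK −/− value was the higher of the 2 in the control and at 5 and 8 h and the lower at 1 and 2 h, so the lower share at every time held for counts alone. The deposited values are sums over a gene and do not show which part of its coding sequence the footprints came from.

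Of 9 fibroblast markers, 7 to 9 were at or above 4 TPM in each of the 13 libraries, with Pdgfra at 0.27 to 2.79 TPM in PERK WT MEFs and Pdgfrb at 2.27 to 5.36 TPM in NIH3T3 cells. Vim, an intermediate filament of mesenchymal cells, lay between 1549 and 3315 TPM, and the 9 markers summed to between 4747 TPM in NIH3T3 cells at 7 h and 9492 TPM in the PERK −/− control. Col3a1, a fibrillar collagen, was near 0 in NIH3T3 cells, at 0.64, 0.99 and 1.67 TPM, against 41.1 to 144 TPM in MEFs. Of the markers of other cells, Sox10, Ptprc and Pecam1 were at or under 0.12 TPM in every library, and the endothelial Cdh5 reached 3.03 TPM in the NIH3T3 control. The 4 epithelial markers summed to between 5.16 and 17.7 TPM in MEFs, mostly Krt18, a keratin, at 3.07 to 16.0 TPM, and to 15.9, 15.7 and 9.42 TPM in NIH3T3 cells, mostly Krt8. Lyz2, a lysozyme of myeloid cells, was at 0 in every MEF library but at 46.8, 48.5 and 12.4 TPM in the NIH3T3 control and at 2 and 7 h. Cd68, the other immune marker, went the other way, at 0.55 to 4.49 TPM in MEFs and 0.86, 0 and 0 TPM in NIH3T3 cells. The 3 immune markers together summed to 47.7, 48.5 and 12.4 TPM in NIH3T3 cells and to between 0.55 and 4.49 TPM in MEFs. Tubb3, a neuronal tubulin that fibroblasts also express, was the most abundant of the 2 neural markers, whose sum in PERK WT MEFs was 63.4 TPM in the control and 53.9, 90.2, 143 and 135 TPM over the times of Tg. In PERK −/− MEFs that sum was 31.1, 20.9, 23.2, 37.4 and 45.6 TPM. Whether these markers have a part in the values of the transporters was not tested.

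In untreated cells the transporters covered a range of levels of more than 100-fold on the TPM scale. In the PERK WT control the order of levels was Slc38a2 at 455.5 TPM, Slc3a2 at 255, Slc7a5 at 142, Slc38a1 at 123, Slc7a1 at 59.3, Slc1a5 at 39.0, Slc1a4 at 27.8, Slc6a9 at 7.80, Slc7a3 at 4.40 and Slc7a11 at 2.51. No neighbours in that order had overlapping 95% Poisson intervals, which cover counting error only. The PERK −/− control had the same order except that Slc7a11, at 3.71 TPM, stood above Slc7a3, at 1.01 TPM, and the intervals of Slc1a5 and Slc1a4 overlapped. In the NIH3T3 control Slc38a2, Slc3a2 and Slc7a5 led as in MEFs, Slc7a1 came before Slc38a1, the intervals of Slc38a1 and Slc1a5 overlapped, and Slc7a3 was last at 0.29 TPM.

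After Tg the heavy chain took first place. Slc3a2 was the most abundant of the transporters in PERK WT MEFs from 2 h on, where it ranked 201, 138 and 117 among all genes of the library at 2, 5 and 8 h after rank 705 in the control. In NIH3T3 cells it led at 2 and 7 h, at 2 h with an interval that overlapped that of Slc38a2. In PERK −/− MEFs Slc38a2 stayed ahead at every time, and at 8 h the intervals of Slc38a2 and Slc3a2 overlapped.

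Together the 10 transporters made up 0.112% of the TPM of the PERK WT control and 0.150%, 0.243%, 0.325% and 0.342% after 1, 2, 5 and 8 h. In PERK −/− MEFs their share was 0.122% before Tg, 0.109% and 0.0875% after 1 and 2 h, and 0.188% and 0.283% after 5 and 8 h. In NIH3T3 cells it was 0.191%, 0.175% and 0.328%. The share was thus higher at each later time in PERK WT MEFs, while in PERK −/− MEFs it was lower than the control at the early times and higher at the late ones. By counts the NIH3T3 share was 0.323%, 0.331% and 0.553%, so its lower value at 2 h held for TPM alone.

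**Figure D1:**
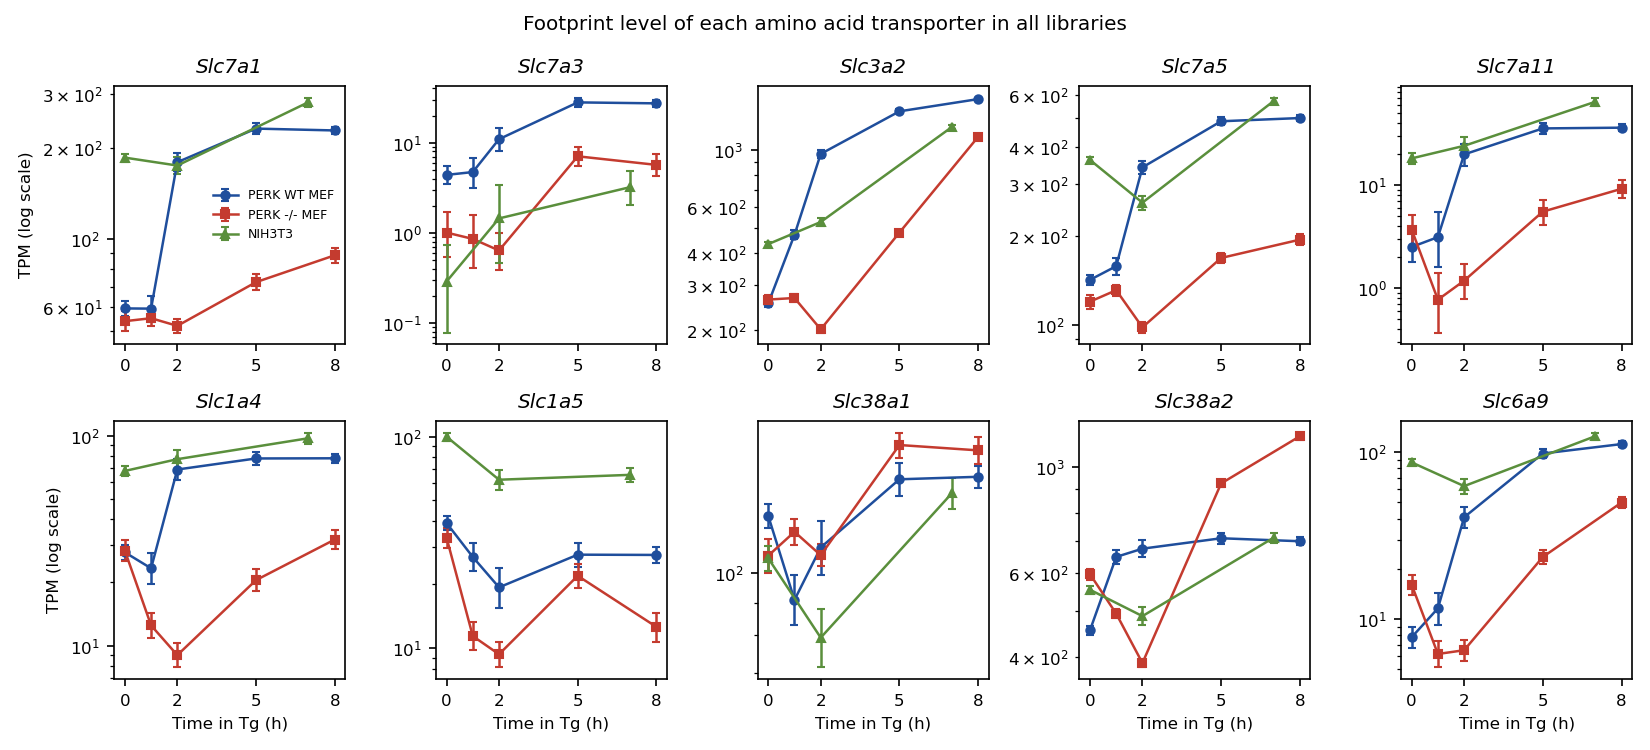
Footprint level of each transporter (TPM, log scale) against time in Tg (h) in PERK WT MEFs (blue circles), PERK −/− MEFs (red squares) and NIH3T3 cells (green triangles), 1 library a point. Bars are 95% Poisson intervals of the counts. In PERK WT MEFs Slc3a2 went from 255 TPM in the control to 1572 TPM at 8 h, and Slc6a9 from 7.80 to 112 TPM.

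The changes were measured as the log2 ratio of the TPM of a treated library to that of its own control, with values under 4 TPM raised to 4. A gene is said to have risen or fallen only where this ratio was at least 2-fold, a limit of size and not a test. In PERK WT MEFs no transporter passed it at 1 h, when 4.33% of all expressed genes had risen and 2.29% had fallen. At 2 h 7 of 10 had risen, against 5.66% of expressed genes, and 1, Slc1a5, had fallen, against 4.01%. The same 7 were up at 5 h and 8 h, against backgrounds of 5.86% and 6.45%, and none was down, against 3.55% and 3.87%. The 7 were Slc7a1, Slc7a3, Slc3a2, Slc7a5, Slc7a11, Slc1a4 and Slc6a9.

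PERK −/− MEFs had a few early falls and a few late rises. None of the 10 had risen at 1 h or 2 h, when 0.719% and 0.623% of expressed genes had, and 3 of 10 (Slc1a4, Slc1a5 and Slc6a9) had fallen at both times, against 3.38% and 5.78%. At 5 h none had passed the limit in either direction, against 3.26% up and 4.77% down. At 8 h 3 of 10 had risen (Slc3a2, Slc7a11 and Slc6a9), against 3.28%, and Slc1a5 had fallen, against 2.73%. All 3 were also among the 7 that rose in PERK WT MEFs.

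In NIH3T3 cells none of the 9 expressed transporters passed the limit at 2 h, when 5.76% of expressed genes had risen and 3.76% had fallen. At 7 h 2 of the 9 had risen, Slc3a2 and Slc7a11, against 7.01%, and none had fallen, against 8.06%. These 2 were thus up at the last time in all 3 kinds of cell. The median log2 change of all expressed genes was −0.11 in PERK −/− MEFs at 2 h and −0.13 in NIH3T3 cells at 2 h. Taken relative to the median of its own library, each of these counts was the same.

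**Figure D2:**
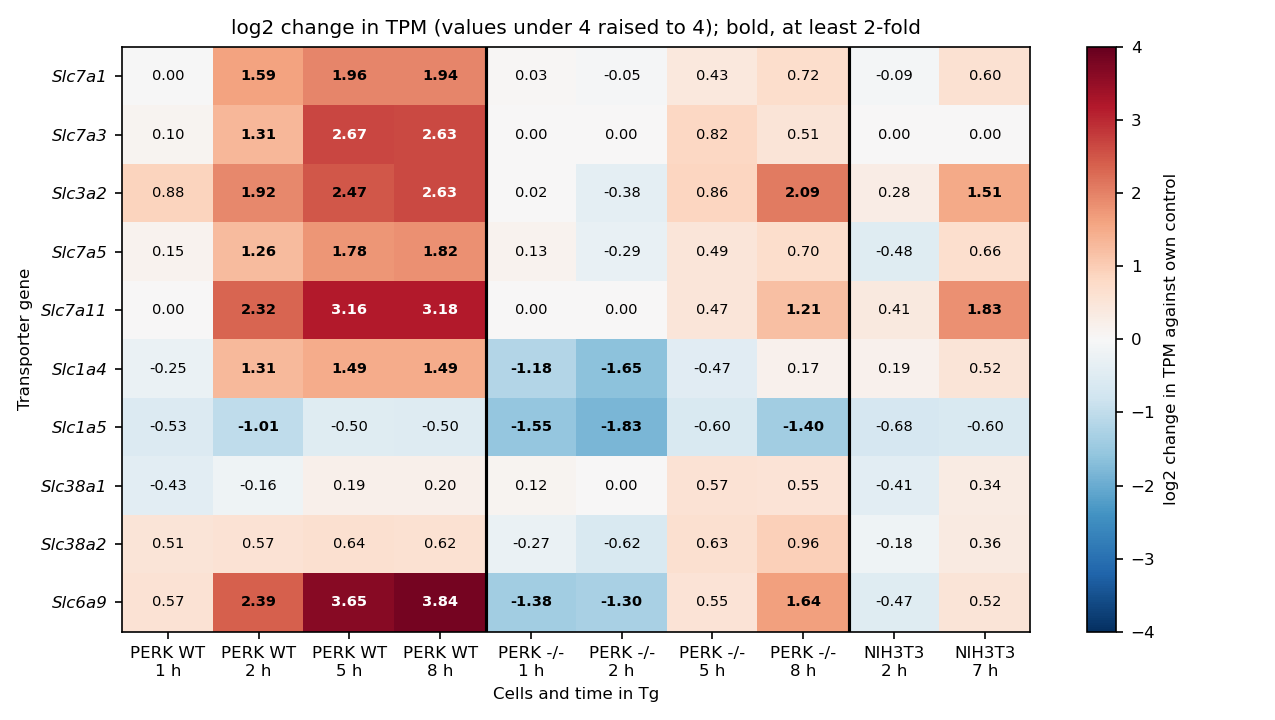
Log2 change in TPM of each transporter (rows) against the control of its own genotype or line at each time of Tg (columns), 1 library a cell, with values under 4 TPM raised to 4 and changes of at least 2-fold in bold. The columns from 2 h on in PERK WT MEFs hold 7 rises each, up to 3.84 for Slc6a9, and PERK −/− MEFs show falls down to −1.83 for Slc1a5 at 2 h. Slc7a3 was not expressed in NIH3T3 cells, and its 0 there reflects values under 4 TPM.

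The cationic transporters Slc7a1 and Slc7a3 carry arginine, lysine and ornithine into the cell. Slc7a1 (chr5:148327410-148399904) had 59.3 TPM in the PERK WT control and 59.2, 179, 231 and 228 TPM at 1, 2, 5 and 8 h. Its PERK −/− levels were 53.9 TPM in the control and then 55.1, 52.0, 72.4 and 88.6 TPM, and its NIH3T3 levels 185, 175 and 282 TPM. The levels were high in PERK WT MEFs from 2 h on and in NIH3T3 cells throughout, and every PERK −/− library lay below those 3 PERK WT libraries. Slc7a1 rose in PERK WT MEFs 3.02-fold, 3.89-fold and 3.84-fold at 2, 5 and 8 h. The changes in PERK −/− MEFs, up to 0.72 on the log2 scale at 8 h, and in NIH3T3 cells, 0.60 at 7 h, did not pass the limit.

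Slc7a3 (chrX:101079146-101090452), the scarcer of the pair, had 4.40 TPM in the PERK WT control and 4.73, 10.9, 28.0 and 27.3 TPM at 1, 2, 5 and 8 h. The PERK −/− libraries held 1.01 TPM and then 0.86, 0.64, 7.07 and 5.68 TPM, and NIH3T3 cells 0.29, 1.45 and 3.22 TPM. It was at its highest in PERK WT MEFs at 5 and 8 h, where it rose 6.35-fold and 6.20-fold. Since the PERK −/− control lay under 4 TPM, the log2 TPM changes there, 0.82 at 5 h and 0.51 at 8 h, are held down by the floor. On expected counts per library total, with no floor, Slc7a3 went from 13 to 66 counts at 5 h in PERK −/− MEFs, a log2 ratio of 2.09 with a 95% counting interval of 1.22 to 3.07. In NIH3T3 cells it gave 4, 5 and 23 counts. Per library total these were log2 ratios of 2.44 (0.22 to 4.77) at 2 h and 3.47 (1.92 to 5.47) at 7 h.

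The heavy chain Slc3a2 (chr19:8706882-8723369) anchors the light chains in the plasma membrane. It had 255 TPM in the PERK WT control and 469, 965, 1409.8 and 1572 TPM at 1, 2, 5 and 8 h. The PERK −/− control had 263 TPM and the treated libraries 267, 202, 478 and 1123 TPM, and NIH3T3 cells had 432, 526 and 1226 TPM. The level was thus high in PERK WT MEFs from 2 h on, in PERK −/− MEFs at 8 h and in NIH3T3 cells at 7 h. The rises were 3.79-fold, 5.54-fold and 6.18-fold at 2, 5 and 8 h in PERK WT MEFs, 4.26-fold at 8 h in PERK −/− MEFs and 2.84-fold at 7 h in NIH3T3 cells. At 1 h in PERK WT MEFs its log2 change of 0.88 was the largest of the 10 transporters, though short of 2-fold. At 5 h in PERK −/− MEFs the log2 change was 0.86 in TPM, short of the limit, and 1.05 by counts (95% counting interval 0.98 to 1.12). In PERK −/− MEFs at 8 h Slc3a2 ranked 10 of 10432 genes by upward change, against 34 in PERK WT MEFs.

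Slc7a5 (chr8:121881146-121907686), the light chain for leucine and other large neutral amino acids, had 142 TPM in the PERK WT control and 158, 341, 489 and 501 TPM at 1, 2, 5 and 8 h. The PERK −/− control held 120 TPM and the later libraries 131, 98.3, 169 and 194 TPM, and NIH3T3 cells 362, 259 and 572 TPM. Its pattern was close to that of Slc7a1, with rises in PERK WT MEFs alone: 2.40-fold, 3.44-fold and 3.52-fold at 2, 5 and 8 h. The changes in PERK −/− MEFs ran from −0.29 at 2 h to 0.70 at 8 h on the log2 scale, and those in NIH3T3 cells were −0.48 at 2 h and 0.66 at 7 h.

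Slc7a11 (chr3:50364936-50499087), the light chain that takes up cystine in exchange for glutamate, was at low levels in MEFs. It had 2.51 TPM in the PERK WT control and 3.13, 20.0, 35.8 and 36.4 TPM at 1, 2, 5 and 8 h. PERK −/− MEFs gave 3.71 TPM and then 0.77, 1.18, 5.54 and 9.24 TPM, and NIH3T3 cells 18.3, 24.2 and 65.0 TPM. Every one of the 5 PERK −/− libraries lay below the PERK WT libraries from 2 h on. With the floor of 4 TPM it rose 5.00-fold, 8.94-fold and 9.09-fold in PERK WT MEFs at 2, 5 and 8 h, 2.31-fold in PERK −/− MEFs at 8 h and 3.56-fold in NIH3T3 cells at 7 h. The floor made the early PERK −/− changes 0. By counts, Slc7a11 went there from 34 in the control to 10 at 1 h, a log2 ratio per library total of −2.34 (95% counting interval −3.52 to −1.29). At 8 h in PERK WT MEFs it went from 38 to 614 counts, a log2 ratio of 4.11 (3.64 to 4.62).

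As 7 of these genes rose in PERK WT MEFs, the RefSeq promoter windows of the members were read for 2 short motifs on both strands, TGATGNAA, the core of the C/EBP-ATF composite element, and TGACNNNGC, the core of the antioxidant response element. The windows cover 250 bases before and 50 bases after a start of transcription on GRCm38.p6. The table held 9 windows for 6 of the 10 members; Slc7a3, Slc7a5, Slc1a5 and Slc38a1 were not in it. Of all 32851 windows in the table, 3.97% held the composite core and 12.4% the antioxidant core. The composite core was found in 2 members, Slc7a11 and Slc1a4, and the antioxidant core in 3, Slc7a1, Slc38a2 and Slc6a9, and no match of one overlapped a match of the other. These are counts of genes, of which Slc7a1 had 2 windows and Slc6a9 had 3, so they are not on the scale of the shares of windows. The windows of the 2 genes with the composite core and of Slc3a2, which held neither, are given here 5′ to 3′, with matches in capitals. They lie on the minus strand at chr3:50443564-50443863 for Slc7a11, chr11:20332664-20332963 for Slc1a4 and chr19:8713848-8714147 for Slc3a2. The windows of Slc7a11 and Slc3a2 lie inside the spans of these genes, which end at 50499087 and 8723369. No window at those ends was read, so each result holds for an internal start alone.
Slc7a11: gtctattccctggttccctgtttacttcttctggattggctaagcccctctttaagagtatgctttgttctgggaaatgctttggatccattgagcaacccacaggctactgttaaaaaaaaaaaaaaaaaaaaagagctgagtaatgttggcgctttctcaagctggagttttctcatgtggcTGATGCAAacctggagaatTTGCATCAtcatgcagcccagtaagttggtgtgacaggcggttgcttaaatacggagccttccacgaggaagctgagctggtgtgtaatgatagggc
Slc1a4: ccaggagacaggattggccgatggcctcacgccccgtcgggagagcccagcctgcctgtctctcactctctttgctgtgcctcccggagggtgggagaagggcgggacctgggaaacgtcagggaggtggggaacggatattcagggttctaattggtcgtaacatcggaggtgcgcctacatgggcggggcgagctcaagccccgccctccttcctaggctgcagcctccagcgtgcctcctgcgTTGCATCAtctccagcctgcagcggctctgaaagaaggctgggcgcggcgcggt
Slc3a2: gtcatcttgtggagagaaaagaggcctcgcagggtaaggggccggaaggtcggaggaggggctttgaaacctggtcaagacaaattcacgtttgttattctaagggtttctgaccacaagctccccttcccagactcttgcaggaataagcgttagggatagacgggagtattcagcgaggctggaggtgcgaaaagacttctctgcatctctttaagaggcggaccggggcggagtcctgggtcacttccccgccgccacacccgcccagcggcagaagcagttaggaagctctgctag
In the Slc7a11 window, TGATGCAA begins at −66 from the start of transcription and TTGCATCA, the core on the other strand, at −47. The match in the Slc1a4 window, TTGCATCA, begins at −4. A match describes letters in a window and not a bound site.

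The heavy chain was set against the sum of its light chains. The 6 known light chain partners (Slc7a5, Slc7a6, Slc7a7, Slc7a8, Slc7a10 and Slc7a11) summed to 223 TPM in the PERK WT control, and Slc3a2 stood at 1.14 times that sum. The ratio was 2.01, 2.25, 2.37 and 2.64 at 1, 2, 5 and 8 h. The PERK −/− control had 1.40, the libraries of 1, 2 and 5 h had 1.29, 1.31 and 1.79, and that of 8 h had 3.89, the highest of the 13. In NIH3T3 cells the ratio was 0.888, 1.49 and 1.71. In TPM it was thus above the control in each treated library but those of 1 and 2 h in PERK −/− MEFs. By counts per library total the ratio at 2 h in PERK −/− MEFs was above its control as well. Of the single light chains, Slc7a11 had larger fold changes than Slc3a2 in PERK WT MEFs at 8 h and in NIH3T3 cells at 7 h. Slc7a5 made up 63.6% of the light chain sum in the PERK WT control and 84.1% at 8 h, and between 63.1% and 67.4% in every PERK −/− library. This ratio was chosen after the values had been seen.

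**Figure D3:**
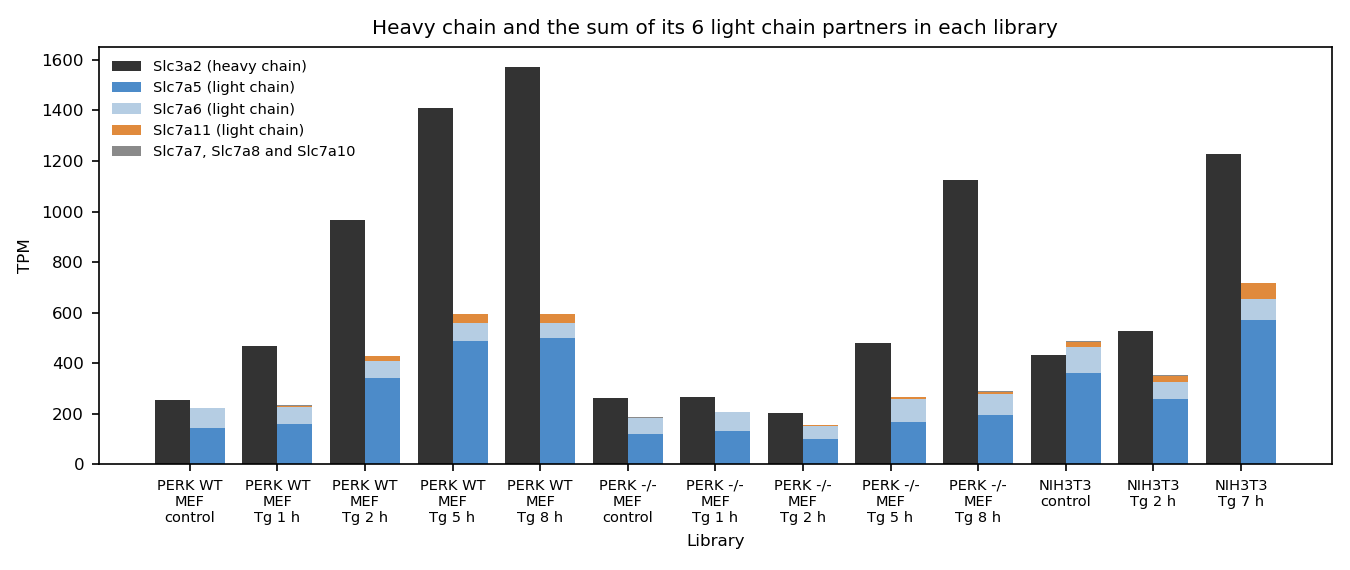
TPM of the heavy chain Slc3a2 (dark bars) beside the stacked TPM of its light chain partners (coloured bars) in each of the 13 libraries. At 8 h of Tg the heavy chain stood at 2.64 times the light chain sum in PERK WT MEFs and at 3.89 times in PERK −/− MEFs, against 1.14 and 1.40 in the controls.

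Slc1a4 and Slc1a5 are related exchangers of small neutral amino acids, the former known for alanine, serine and cysteine and the latter for glutamine. Slc1a4 (chr11:20302180-20332713) had 27.8 TPM in the PERK WT control and 23.3, 69.0, 77.9 and 78.0 TPM at 1, 2, 5 and 8 h. Its PERK −/− values were 28.3 TPM and then 12.5, 9, 20.5 and 32.0 TPM, and its NIH3T3 values 67.9, 77.2 and 97.2 TPM. The MEF controls were alike, and the changes of the genotypes had opposite signs at 2 and 5 h. Slc1a4 rose in PERK WT MEFs 2.48-fold, 2.80-fold and 2.81-fold at 2, 5 and 8 h. In PERK −/− MEFs it fell to 0.440 of its control at 1 h, a fall short of 2-fold once a trend on GC content was removed, and to 0.318 at 2 h. At 8 h it stood at 1.13-fold its control.

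Slc1a5 (chr7:16781334-16798274) was below its control in all 10 treated libraries, the one transporter for which this held. It had 39.0 TPM in the PERK WT control and 27.0, 19.4, 27.7 and 27.6 TPM at 1, 2, 5 and 8 h. The PERK −/− levels were 33.3 TPM and then 11.4, 9.35, 22.0 and 12.6 TPM, and those of NIH3T3 cells 99.8, 62.5 and 65.9 TPM. It fell to 0.497 of its control in PERK WT MEFs at 2 h, just past the limit, and in PERK −/− MEFs to 0.342, 0.281 and 0.378 at 1, 2 and 8 h. By expected counts the fall in PERK WT MEFs at 2 h was a log2 ratio of −0.87 (95% counting interval −1.22 to −0.55), short of 2-fold. In NIH3T3 cells its log2 changes were −0.68 and −0.60.

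Slc38a1 and Slc38a2 take up glutamine and other neutral amino acids together with sodium, and they were abundant in each line. Slc38a1 (chr15:96571418-96643438) ranged from 90.9 to 141 TPM over the PERK WT libraries, 107 to 158 TPM over the PERK −/− libraries and 79.4 to 133 TPM over the NIH3T3 libraries. Its changes lay between −0.43 and 0.57 on the log2 scale, and none of the 10 passed the limit. Slc38a2 (chr15:96687392-96699728) lies near it on the same chromosome. It had 455.5 TPM in the PERK WT control and 648, 674, 709 and 699 TPM at 1, 2, 5 and 8 h, and in PERK −/− MEFs 597 TPM and then 493, 389, 923 and 1158 TPM. In NIH3T3 cells it had 553.5, 488 and 711 TPM. No change of Slc38a2 passed the limit, the nearest being 1.94-fold in PERK −/− MEFs at 8 h, and at that time its level in PERK −/− MEFs was 166% of that in PERK WT MEFs.

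Slc6a9 (chr4:117835258-117869305), which takes up glycine with sodium and chloride, had the largest changes in PERK WT MEFs from 2 h on with the floor of 4 TPM, while by counts those of Slc7a11 were larger (17.3-fold against 14.4-fold at 8 h). It had 7.80 TPM in the control there and 11.6, 40.8, 98.2 and 112 TPM at 1, 2, 5 and 8 h. PERK −/− MEFs had 16.1 TPM and then 6.19, 6.52, 23.6 and 49.96 TPM, and NIH3T3 cells 86.9, 62.6 and 125 TPM. The NIH3T3 control was already at the level that PERK WT MEFs came to between 2 and 5 h. Slc6a9 rose in PERK WT MEFs 5.23-fold, 12.6-fold and 14.3-fold at 2, 5 and 8 h, rank 10 of 10432 genes by upward change at 8 h. In PERK −/− MEFs it fell to 0.385 and 0.405 of its control at 1 and 2 h, the latter short of 2-fold once the GC trend was removed, and was up 3.11-fold at 8 h, rank 40. With the floor of 4 TPM it was also the one transporter at least 2-fold apart between the untreated genotypes, higher in the PERK −/− control by 1.04 on the log2 scale (by counts 1.04, 95% counting interval 0.75 to 1.33). By counts, without that floor, Slc7a3 was apart as well, lower in the PERK −/− control with a log2 ratio of −1.70 (−2.68 to −0.84). Of all expressed genes, 6.04% were at least 2-fold higher in the PERK −/− control and 1.97% at least 2-fold lower.

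The rises in PERK WT MEFs were over 50% complete at 2 h for 5 of the 7 genes and nearly complete by 5 h. Of the TPM that Slc1a4 had gained by 8 h, 82.0% was in place at 2 h, against 71.2% for Slc7a1, 55.5% for Slc7a5, 53.9% for Slc3a2 and 51.6% for Slc7a11. Slc6a9, at 31.7%, and Slc7a3, at 28.6%, were later. Slc3a2 alone had a sizeable part of its gain, 16.3%, at 1 h. By 5 h the 7 genes had between 86.9% (Slc6a9) and 103% (Slc7a3) of their gain at 8 h. In PERK −/− MEFs the 3 genes that rose had 22.1% (Slc6a9), 25.0% (Slc3a2) and 33.1% (Slc7a11) of their gain at 5 h, so most of it lay between 5 and 8 h. In NIH3T3 cells Slc3a2 had 11.8% and Slc7a11 12.7% of the gain at 7 h by 2 h.

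As 5 h and 8 h of Tg in PERK WT MEFs were nearly alike for these genes, with steps from −0.04 for Slc7a3 to 0.19 for Slc6a9 on the log2 scale, the libraries themselves were compared. Over 9184 genes the squared deviation between these 2 libraries was 1.88 times that of counting error, where 1 would be counting error alone. The other 9 pairs of neighbouring libraries had 7.07 to 60.3 times. The sample descriptions do not say whether these 2 libraries share material, so 5 h and 8 h may not be separate observations of the 7 rises.

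The genotypes were set side by side at equal times to ask how far their changes differed. At 2 h the log2 change by counts in PERK WT MEFs exceeded that in PERK −/− MEFs by 4.49 for Slc7a11 (95% Wald interval from the counts 3.56 to 5.42), 3.62 for Slc6a9 (3.22 to 4.02), 2.89 for Slc1a4 (2.57 to 3.22) and 2.08 for Slc3a2 (1.99 to 2.18). For Slc7a3, Slc7a1 and Slc7a5 the difference was 2.25 (1.10 to 3.39), 1.58 and 1.48. Slc38a2 and Slc1a5, which did not rise in either genotype at 2 h, still differed by 1.01 and 0.92, and Slc38a1 by −0.24. In TPM, the PERK −/− level at 2 h was between 5.85% (Slc7a3) and 29.0% (Slc7a1) of the PERK WT level for the 7 genes that rose, and 97.3% for Slc38a1. The value for Slc7a3 rested on 0.64 TPM and 19 counts in PERK −/− MEFs, and in the controls its level there was already 23.0% of the PERK WT level.

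By 8 h the differences by counts of the 7 genes were smaller, though for Slc7a3 that in TPM with the floor was larger than at 2 h. Slc3a2 differed by 0.61 (0.53 to 0.69), with the PERK −/− level at 71.4% of the PERK WT level, and Slc7a3 by 1.03 with a wide interval (0.09 to 1.97). The light chains lagged, with differences of 2.80 (2.07 to 3.54) for Slc7a11 and 1.13 for Slc7a5 and levels at 25.4% and 38.8% of the PERK WT level. Slc6a9, at 2.22 (1.91 to 2.53), Slc1a4, at 1.32, and Slc7a1, at 1.23, were also apart. Slc38a2 and Slc38a1 differed the other way, by −0.35 (−0.41 to −0.29) and −0.33. At 1 h the differences of Slc7a1 and Slc7a5 were within counting error of 0, at −0.05 (−0.26 to 0.16) and 0.01 (−0.14 to 0.16), though both were negative with TMM factors, while Slc7a11, Slc6a9 and Slc3a2 differed by 2.40 (1.02 to 3.78, from 12 and 10 treated counts), 1.93 and 0.84. In TPM with the floor of 4, the difference for Slc7a11 was 0 at 1 h and 2.32 at 2 h. These intervals hold for the counts of single libraries and leave out variation between cultures.

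**Figure D4:**
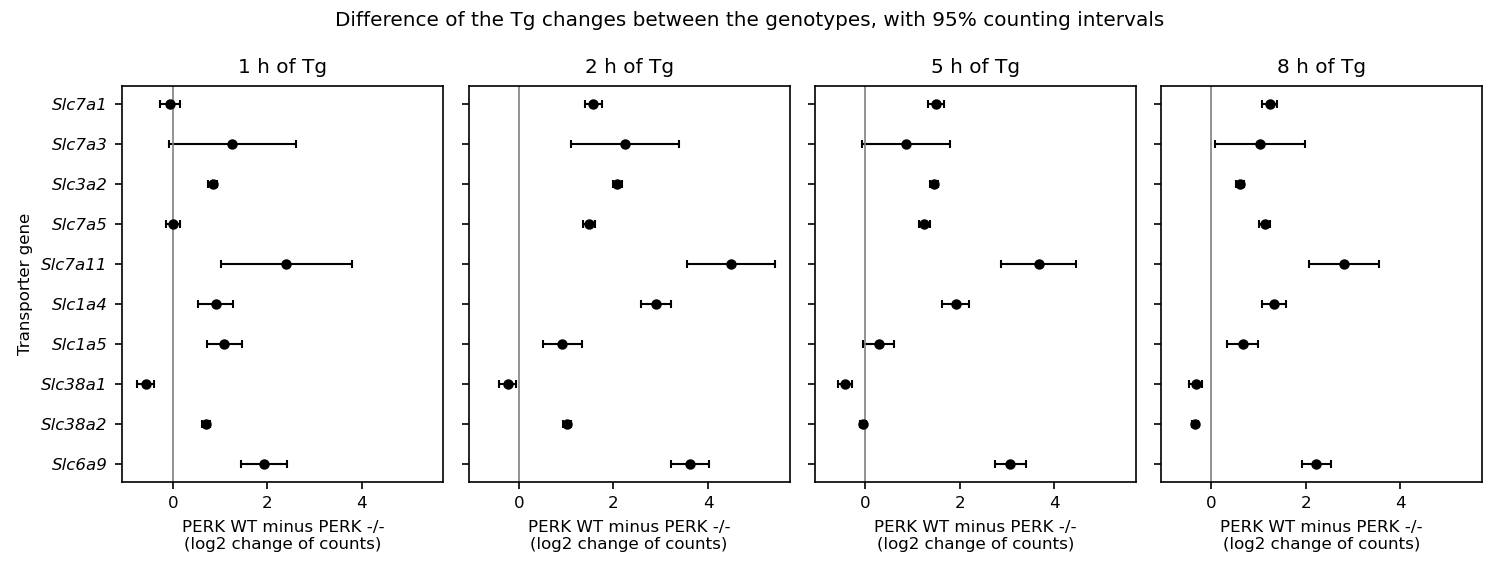
Log2 change by counts in PERK WT MEFs minus that in PERK −/− MEFs for each transporter at 1, 2, 5 and 8 h of Tg, with 95% Wald intervals from the 4 counts of each. The difference for Slc3a2 went from 2.08 at 2 h to 0.61 at 8 h, and that for Slc7a11 from 4.49 to 2.80.

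Few of the other amino acid transporters of the plasma membrane and lysosome rose in PERK WT MEFs, at shares not far from those of all expressed genes. The median log2 change of the 10 transporters there was 0.05, 1.31, 1.87 and 1.88 after 1, 2, 5 and 8 h, the last with a 95% order-statistic interval of 0.20 to 3.18. Of 46 other amino acid transporters of the plasma membrane and lysosome, 19 were expressed in MEFs, with medians of 0.03, 0.00, 0.14 and 0.14. Of these 19, 1 had risen at 5 h and 2 at 8 h (5.26% and 10.5%), against 5.86% and 6.45% of expressed genes. They were the lysosomal cystine carrier Ctns (2.02-fold and 2.10-fold) and Slc43a1 (2.18-fold at 8 h), and none had fallen. All other Slc genes, which include those of the 19 with an Slc symbol, had medians between 0.00 and 0.04 over 160 expressed genes.

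From 2 h on, the medians of these lists were closer together in PERK −/− MEFs. The medians of the 10 transporters were 0.00, −0.34, 0.52 and 0.71 at 1, 2, 5 and 8 h, those of the other amino acid transporters −0.21, −0.58, 0.07 and 0.46, and those of all other Slc genes −0.20, −0.41, 0.05 and 0.33. Of the 19, 3 had fallen at 1 h and 3 at 2 h, against 3.38% and 5.78% of expressed genes. The glutamate carrier Slc1a3 fell the most (−1.67 and −1.98), and Slc38a7 fell at both times (−1.01 and −1.67). At 5 h 3 had risen, against 3.26% of expressed genes, and Slc1a3 was still down. At 8 h 4 of 19 had risen, Slc36a4 (2.88-fold), Slc38a9 (2.87-fold), Pqlc2 (2.58-fold) and Ctns (2.42-fold), and none had fallen. Among all expressed genes 3.28% had risen at 8 h, and the medians were −0.06, −0.11, 0.00 and 0.04 at 1, 2, 5 and 8 h. Of the 160 other Slc genes, 15 (9.4%) had risen at 8 h and none had fallen.

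In NIH3T3 cells the 9 expressed transporters had medians of −0.18 at 2 h and 0.52 at 7 h. The other amino acid transporters, 16 of them expressed, had −0.14 and −0.42, and all other Slc genes −0.23 and −0.01. At 2 h 2 of those 16 had fallen, Slc36a1 (−1.48) and Slc38a10 (−1.14), against 3.76% of expressed genes. At 7 h Slc43a3 had fallen (−1.06), against 8.06%.

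Genes of the ATF4 pathway had higher medians than the transporters at each time in PERK WT MEFs, though the order-statistic intervals of the 2 lists overlapped each time. Of 13 listed and expressed in MEFs, 7, 11, 12 and 12 had risen in PERK WT MEFs at 1, 2, 5 and 8 h, with medians of 1.13, 2.74, 2.81 and 2.89. Among all expressed genes 4.33%, 5.66%, 5.86% and 6.45% had. Of the 13, 1, Cebpg, had fallen at 1 h (−1.64), against 2.29%. Ddit3, a transcription factor of prolonged ER stress, rose 19.7-fold at 1 h and 42.0-fold at 8 h, Atf4 itself 14.1-fold and 16.7-fold, and Trib3, a pseudokinase, 44.3-fold at 8 h. Thus 7 genes of this list had passed the limit at 1 h, when no transporter had. In PERK −/− MEFs the medians were −0.61, −0.86, −0.02 and 0.48. There 3, 4 and 4 genes were down at 1, 2 and 5 h, against 3.38%, 5.78% and 4.77% of expressed genes. Of the 13, 1 had risen there at each of the last 3 times, against 0.623%, 3.26% and 3.28% of expressed genes. Among these were Ddit3 at 2 h (2.05-fold) and Chac1, a glutathione-degrading enzyme, at 8 h (2.14-fold), when 3 of the 10 transporters had risen. The list holds Eif2ak3 itself, whose fall in PERK −/− MEFs at 2 h and rises in PERK WT MEFs at 5 and 8 h and in NIH3T3 cells at 7 h passed 2-fold in TPM but not by counts. In NIH3T3 cells 6 of 12 had risen at 2 h and 6 at 7 h, against 5.76% and 7.01% of expressed genes. The medians there were 0.70 and 1.11, and Atf4 was up 8.36-fold at 2 h and 2.96-fold at 7 h.

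The 6 expressed mitochondrial amino acid carriers had medians of 0.46, 0.25, 0.01 and 0.17 in PERK WT MEFs. Of the 6, 1, 2, 1 and 2 had risen there after these times (16.7%, 33.3%, 16.7% and 33.3%). The shares of expressed genes were lower, at 4.33%, 5.66%, 5.86% and 6.45%. At 8 h those up were the glycine carrier Slc25a38 (2.21-fold) and Slc25a44 (2.07-fold), and Slc25a13 had fallen (−1.02), against 3.87%. Their medians were −0.17, −0.11, −0.19 and 0.02 in PERK −/− MEFs, where 1 had fallen at 5 h, against 4.77% of expressed genes. In NIH3T3 cells the medians were −0.53 and −0.40, and Slc25a13 had fallen at 7 h (−1.15), against 8.06%.

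The 8 genes of glutathione synthesis and NRF2 targets had medians of 0.20, 0.10, 0.22 and 0.34 in PERK WT MEFs. There 2 of 8 had risen at 8 h, against 6.45% of expressed genes. They were the haem-degrading enzyme Hmox1 (6.07-fold), up from 2 h on, and Srxn1 (3.60-fold). In PERK −/− MEFs at 8 h 2 of 8 had risen, against 3.28%, with a median of 0.70. They were Srxn1 (4.51-fold) and Gclc (2.27-fold), the catalytic subunit of the first step of glutathione synthesis. In NIH3T3 cells the medians were −0.44 and −0.25. At 7 h Hmox1 rose 4.07-fold, against 7.01% of expressed genes up, while Srxn1 fell to 0.248 of its control, against 8.06% down.

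**Figure D5:**
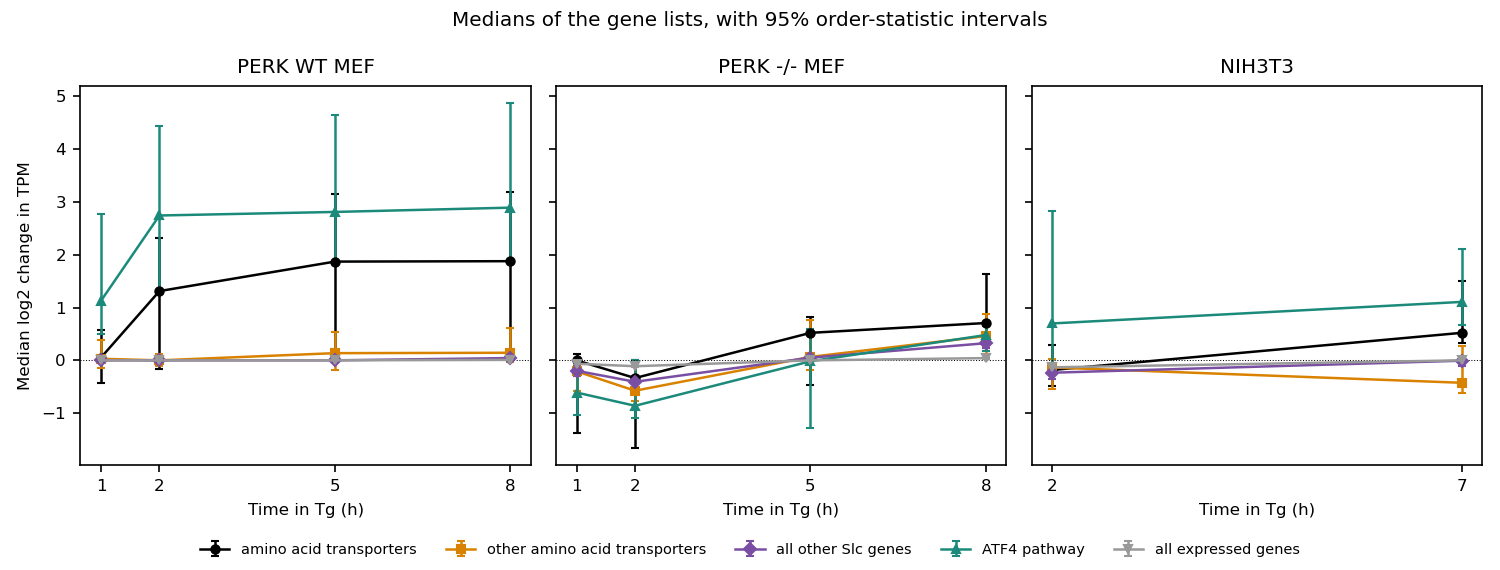
Median log2 change in TPM (points) with order-statistic 95% intervals (bars) of the 10 transporters and 4 other lists against time in Tg (h). In PERK WT MEFs the transporters stood at 1.88 at 8 h, other amino acid transporters at 0.14 and the ATF4 pathway at 2.89. In PERK −/− MEFs these 3 medians were 0.71, 0.46 and 0.48.

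Genes with the most similar changes were sought for the heavy chain Slc3a2 and the light chain Slc7a5, by the root mean square difference of log2 changes over the 10 treated libraries among 9366 genes expressed in both tables. Nearest to Slc7a5 were Aldh18a1, an enzyme of proline synthesis, at 0.16, its fellow transporter Slc7a1 at 0.20, Rps6ka2, the asparagine synthetase gene Asns, and Edem1. The median over all genes was 1.03, and the likeness did not extend to Slc3a2, at rank 1072. Nearest to Slc3a2 were Syvn1, an ER ubiquitin ligase, at 0.40, 2310039H08Rik, Ibtk, Rab39b and Smim14, against a median of 1.60, and Slc7a5 came at rank 36. Of these neighbours, Rps6ka2, 2310039H08Rik, Ibtk and Rab39b had some values under 4 TPM, so the floor had a part in their distances. For Slc7a11 the floor set 3 of the 10 changes to 0, and its distances were left out. The treated libraries share 3 controls, so these distances describe patterns and are not independent measures.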

How the data were processed

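Ribosome footprints of 13 libraries, 1 per condition, were analysed. Per the submitters' processing notes, STAR, Bowtie2, RSEM and the mm10 build were used, with versions not given. The authors deposited an expected count for every gene and library, a whole number from RSEM without scaling across libraries. The deposited TPM is RSEM's measure per coding length, which sums to the same total in each library.

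Expression was called at a mean of at least 2 TPM in a table. Ratios were taken to the control of the same genotype or line after a floor of 4 TPM was applied, and a 2-fold limit was used. Counting intervals (95%) were exact conditional (Clopper-Pearson) for ratios of counts per library total, Wald for genotype differences, exact Poisson for levels and from order statistics for medians; they cover counting error only. As each condition had 1 library, there was no test and no replicate to leave out. All members were named, and from each other list up to 6 genes with the largest changes past 2-fold and at least 100 counts in the larger library; Eif2ak3, cell markers and nearest genes were named apart from this rule. Members, lists and this rule were chosen with earlier results of these data known. Gene coordinates and promoters were from RefSeq, and coding GC content was from GENCODE on GRCm38. Alternatives were other floors, expression limits, scalings, a GC correction and a 1.5-fold limit. Calculations were checked on simulated counts. Python 3.11.15, numpy 2.4.6, scipy 1.17.1, pandas 2.3.3, statsmodels 0.14.6, matplotlib 3.10.9, R 4.3.3, edgeR 4.0.16 and DESeq2 1.42.0 were used.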

Additional observations from a re-analysis of the deposited data

Results flagged for a closer look

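On TPM with the floor of 4, for 3 transporters the changes at 1 and 2 h of Tg went one way at both times in PERK WT MEFs and the other way at both times in PERK −/− MEFs, a difference between the genotypes that was not tested. The mean log2 change in TPM over these times was higher in PERK WT MEFs by 2.82 for Slc6a9 (1.48 against −1.34) and by 0.98 for Slc38a2 (0.54 against −0.45). For Slc38a1 the difference was −0.36 (−0.30 in PERK WT MEFs against 0.06 in PERK −/− MEFs), and all changes behind it were under 2-fold; by counts its PERK −/− change at 2 h had a counting interval that included 0. By counts, without the floor, the changes of Slc7a3 and Slc7a11 had opposite signs in the genotypes at both times as well, though the counting intervals of Slc7a3 at 1 h in PERK WT MEFs and at both times in PERK −/− MEFs, and of Slc7a11 at 1 h in PERK WT MEFs, included 0.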

How the results depend on the processing

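Of the 34 member changes of at least 2-fold, each recomputed under 8 alternatives, all 272 values kept their sign and 266 stayed past 2-fold. The alternatives that moved only the expression limit (a mean of at least 5 TPM, or no limit) could not change these values. They are in that tally but were no check of it. The exceptions were Slc1a5 in PERK WT MEFs at 2 h under a pseudocount and the 3 count scalings, and Slc1a4 at 1 h and Slc6a9 at 2 h in PERK −/− MEFs after removal of a GC trend. In PERK WT MEFs at 2 h, the count of falls was therefore 0 under a pseudocount of 1 TPM, under counts per library total, under TMM factors and under DESeq2 size factors. In PERK −/− MEFs at 5 h, where none had risen, 1 had (Slc7a3) with a floor of 1 TPM or a pseudocount of 1 TPM, and 2 had (Slc3a2 and Slc7a3) under each of the 3 count scalings. Under these same 5 alternatives 4 had fallen in place of 3 at 1 and 2 h in PERK −/− MEFs (with Slc7a11), and 4 had risen in place of 3 at 8 h (with Slc7a3).

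With a 1.5-fold limit, 1 had risen in PERK WT MEFs at 1 h (Slc3a2), against 12.8% of expressed genes. At 5 and 8 h 8 in place of 7 had risen (with Slc38a2), against 16.7% and 17.8%. In PERK −/− MEFs 4 in place of 3 had fallen at 2 h (with Slc38a2), against 18.8% of expressed genes. At 5 h 3 had risen, against 10.6%, and 1 had fallen, against 12.8%. At 8 h 6 had risen, against 12.5%. In NIH3T3 cells 1 had fallen at 2 h, against 18.2% of expressed genes. At 7 h 4 had risen, against 16.7%, and 1 had fallen, against 20.1%. Both falls were of Slc1a5. The cause of these shifts was not tested. Of 80 genotype differences recomputed with TMM factors or TPM, 20 moved beyond their counting interval, and those within counting error of 0 could change sign (Slc7a5 at 1 h, Slc38a2 at 5 h). The medians of the members kept within their intervals under the alternatives tried, but these intervals are wide. In PERK −/− MEFs at 1 h the interval was −1.38 to 0.12, and the median, 0.00 with the floor, was lower by counts. Over all lists, counts per library total moved a median by up to 0.58. Counts with TMM factors in place of TPM moved the median of all expressed genes in PERK −/− MEFs at 2 h from −0.11 to 0.03, and the share of rises among changed genes from 9.73% to 33.4%. Counts per library total alone, without TMM factors, left the median at −0.11 and gave a share of 19.4%. At 8 h there TMM factors moved that share from 54.5% to 43.7%. In NIH3T3 cells at 2 h it went from 60.5% to 39.7% with a 1.5-fold limit and to 80.0% after removal of a GC trend. At 7 h that removal moved it from 46.5% to 52.5%. Depth limits Slc7a3 and Slc7a11 most, with 13 and 34 counts in the PERK −/− control and 4 counts of Slc7a3 in the NIH3T3 control.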

Other observations

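Among the other Slc genes, some of the largest changes fell on carriers that do not move amino acids. Slc35a4, of the nucleotide sugar transporter family, rose 8.58-fold in PERK WT MEFs at 1 h, from 4.10 to 35.2 TPM, when none of the 10 amino acid transporters had passed 2-fold, and was up 5.37-fold at 8 h. Slc16a3, a lactate carrier, rose 2.45-fold at 1 h in PERK WT MEFs, and in PERK −/− MEFs it went from 44.4 to 146 TPM at 8 h, 3.28-fold. Slc5a3, an inositol carrier coupled to sodium, fell in PERK WT MEFs to 0.346 of its control at 8 h, from 59.1 to 20.5 TPM, and in PERK −/− MEFs at 1 h to 0.484.

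In NIH3T3 cells at 7 h the largest rise among other Slc genes with at least 100 counts was that of Slc2a6, of the glucose transporter family, from 4.20 to 34.2 TPM (8.14-fold), and the largest fall that of the zinc transporter gene Slc39a3, to 0.175 of its control. Slc35b1 rose at the last time in PERK −/− MEFs, from 134 to 351 TPM, and in NIH3T3 cells, from 139 to 316 TPM.

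Expected counts and TPM did not always give the same change, for a cause that was not tested, as for Eif2ak3 at 2 h in PERK −/− MEFs, whose log2 change was −1.10 in TPM while the counting interval of its ratio by counts was −0.96 to −0.08. The library of PERK WT MEFs at 2 h, on which the early rises rest, was the shallowest of the 13.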
